A study of Mus musculus with 24 samples.

Results

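The genes described here are 10 central components of transforming growth factor beta (TGF-beta) signalling in mouse Gata1s fetal liver cells: the ligand Tgfb1, the receptors Tgfbr1 and Tgfbr2, the signal transducers Smad2, Smad3 and Smad4, the inhibitory Smad7, and the nuclear repressors Ski, Skil and Tgif1. They were taken by name, with earlier results of these data known, and all 10 were found among the 47069 gene identifiers of the deposited count table and were among the 13419 genes with enough reads to test. The cells came from fetal livers of E12.5-13.5 embryos of a B6J.129(Cg) strain with the knock-in allele Gt(ROSA)26Sortm1.1, in which the CAG promoter drives Cas9 and EGFP from the Rosa26 locus. Every library, control or not, carried the guide sgGata1, which is directed at Gata1 to give the short form Gata1s, so no group lacked this guide. How much of Gata1 was edited was not checked. The second transgene was miR-125b, or miR-ctrl in the controls. Both arms were sampled under 4 conditions: doxycycline at 1 µg/mL for 48 h (day 2), for 10 days (day 10) or for 13 days (day 13), or doxycycline taken away on day 10 with sampling on day 13 (withdrawal). Each of the 8 groups had 3 RNA-seq libraries, numbered 1 to 3, for 24 in all. The labels do not say that the 3 came from separate cultures or embryos, or that a culture was sampled over time, so a p-value measures the spread between these libraries, which may be technical.

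TGF-beta is a secreted cytokine that is released as an inactive complex and has to be freed before it binds its receptors. The active ligand binds the type II receptor, which phosphorylates the type I receptor, and this in turn phosphorylates Smad2 and Smad3. These join Smad4 and act on genes in the nucleus. Smad7 blocks the receptors and marks them for degradation, while Ski, SnoN (the product of Skil) and Tgif1 hold SMAD target genes in check. Smad7 and Skil are themselves induced by the pathway. Megakaryocytes and platelets are a large source of TGF-beta1, and the cytokine restrains the growth of blood progenitors. miR-125b is a microRNA that lowers the messages it pairs with, mostly through its seed, bases 2 to 8.

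The mature sequence is shown because any direct pairing with the 10 messages would start from its seed, printed in capitals (RefSeq, GRCm38):
mmu-miR-125b-5p: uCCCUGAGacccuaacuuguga
The DNA letters that pair with the seed are CTCAGGG. On the transcribed strand, this 7-base match was in 0 of the 10 members, in the longest annotated 3′ UTR and in any other (GENCODE M21, GRCm38), while 14.1% of the 21193 genes with a 3′ UTR held it. The share rises with length: among genes with a 3′ UTR within 20% of the length of that of Skil, at 3964 bases, 30.3% held a match, and for Smad7, at 1570 bases, 15.8% did. The shorter 6-base match TCAGGG, which lies inside the 7-base one, was in the longest 3′ UTR of Tgfbr1 (1 match), Tgfbr2 (2), Smad2 (2), Smad4 (1) and Smad7 (1), and of 33.3% of all genes. It was not in that of Tgfb1, Smad3, Ski, Skil or Tgif1. The matches in the receptor messages and, for contrast, a pair of 7-base matches in Arid3a are printed with the matching bases in capitals. The match in Tgfbr1 and both of those in Arid3a are followed by an A, and the matches in Tgfbr2 are not. Arid3a is the target named in the title of the series.
Tgfbr1 (chr4:47413028-47413033, plus strand): tgctttgatgaaTCAGGGaattttttaa
Tgfbr2 (chr9:116088577-116088582, minus strand): gacctcattaggTCAGGGctctttgtat
Tgfbr2 (chr9:116087051-116087056, minus strand): tgtgtgtgtgtgTCAGGGgtggggtatt
Arid3a (chr10:79952887-79952893, plus strand): ggcctcctgtgcCTCAGGGatgacagtg
Arid3a (chr10:79953820-79953826, plus strand): atgggtaactggCTCAGGGatatagcag
The 3′ UTR of Arid3a held 6 matches of 7 bases, and only the 2 printed are followed by an A. These matches are letters in a UTR and do not show that the sites are used.

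Total counts ran from 14694900 to 23755245 per library. Gata1 lay between 194 and 514 CPM (counts-per-million, normalised by the TMM method) and was called in no comparison with edgeR, and counts per gene cannot tell the short form from the full one. Arid3a was used to check the miR-125b labels. In the miR-125b libraries it lay between 28.5 and 41.3 CPM at day 2 and between 29.8 and 32.8 CPM at day 10, below the control libraries of the same days, which lay between 50.8 and 71.0 CPM. In the miR-125b libraries labelled day 13 with continued doxycycline it lay between 45.4 and 57.5 CPM, overlapping the controls at 49.5 to 71.9 CPM. In those labelled withdrawal it lay between 26.7 and 35.6 CPM, below their controls at 64.1 to 76.3 CPM. The order of these last groups goes against what their labels would give if doxycycline switched miR-125b on, which the labels do not state. The day 13 and withdrawal groups are therefore named below as labelled, and a mean over all conditions is also given for days 2 and 10 alone. Megakaryocyte markers were high, with 9 of 9 detected and a summed level of 2485 to 6368 CPM, while of 4 hepatocyte markers Ttr was at 0 in every library, Alb had at most 1 read and Apoa1 at most 2, and Afp, which fetal liver makes, was low at 1.36 to 4.45 CPM.

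Skil and Smad7, the negative regulators that the pathway itself induces, were lower in the miR-125b arm when libraries of the same replicate number were compared, and the other 8 genes passed no test of miR-125b against control. Skil was lower in the miR-125b library than in the control library of the same condition and replicate number in 12 of 12 such pairs, and Smad7 in 11 of 12. Over all 13419 genes, 0.492% were lower in 12 of 12 pairs and 2.22% in at least 11. Without regard to replicate number, edgeR's quasi-likelihood test at an adjusted p under 0.05 called 0 of the 10 members in each of the 13 comparisons made. The background called the same way was 0% of all genes at day 2, 0.872% at day 10, 0% at day 13, 0.119% after withdrawal and 1.28% for the mean of the 4 conditions. At an unadjusted p under 0.05 the same test gave 1 member in these 5 comparisons, Tgfbr1 in the mean, against 12.1% of all genes there and 5.28%, 17.4%, 2.89% and 8.55% in the 4 single conditions in the same order. DESeq2 also called 0 members.

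The replicate number explained much of the spread. With it as a block in the edgeR model, so that libraries of the same number were compared, Skil passed the test at day 10, after withdrawal and in the mean of the 4 conditions, and Smad7 passed in the mean. That is 1, 1 and 2 of 10 members, against 8.63%, 1.86% and 6.39% of all genes. At day 2 the block called 0 members and 0% of all genes, and at day 13 0 members and 0.0149% of all genes. With only 10 members, 1 call is enough to put their share above each of these backgrounds, and the members were taken with earlier results known. These shares therefore cannot show an excess of calls in the set. In the mean, 7 of 10 members were lower in the miR-125b arm, with a median log2 fold change of -0.10, and 53.4% of all genes were lower, with a median of -0.01. Beyond a level shared by each replicate number, the block treats the 4 conditions of an arm and number as independent. Whether a number was 1 culture sampled over time is not given. If it was, the pairs are not independent and the p-values of the mean overstate the support.

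**Figure D1:**
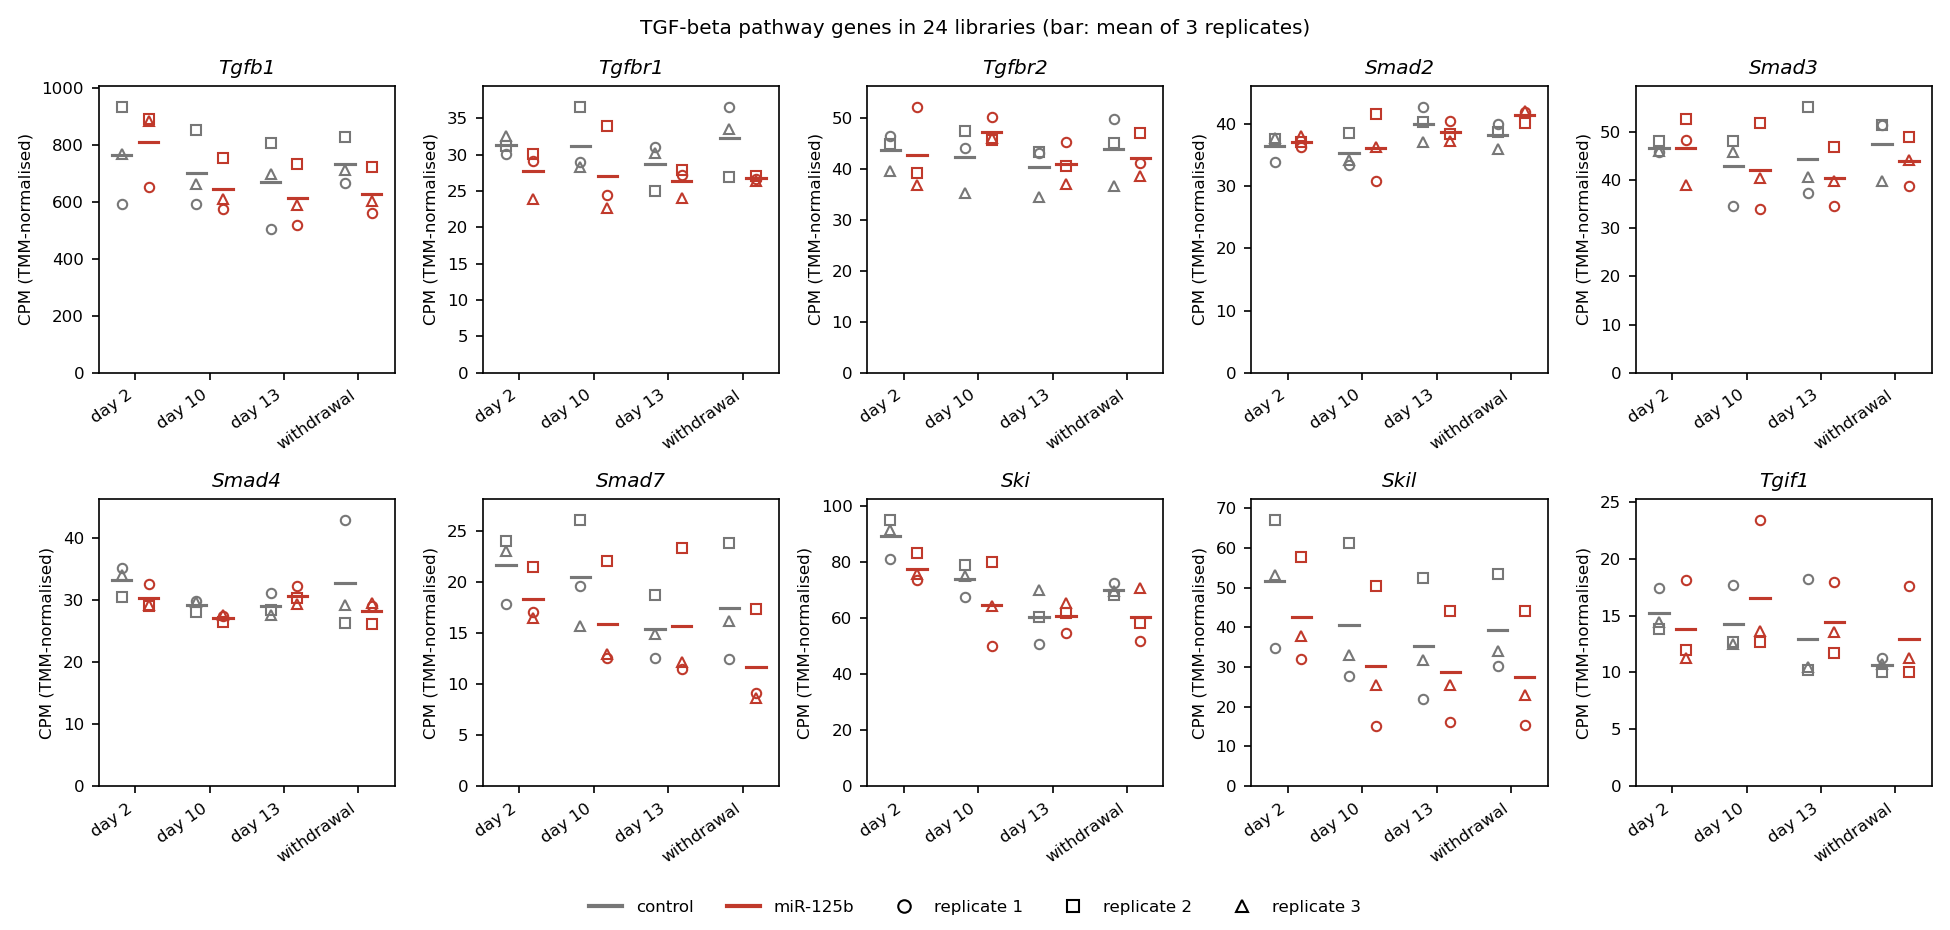
Level of each of the 10 genes in all 24 libraries, in TMM-normalised CPM (vertical axis, starting at 0), for the 4 conditions (horizontal axis). Grey marks control and red marks miR-125b, symbols mark the replicate number and bars the mean of 3 libraries; for Skil, Smad7 and Tgfb1 the squares of replicate 2 lie highest in every group.

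Compared per length of exon, Tgfb1 stood far above the other members, with a median of 135 RPKM (CPM divided by the kilobases of exon) over the 24 libraries and a lowest value of 100.1. Ski followed at a median of 12.6 RPKM, with its highest value at 17.1, so the ranges of these leading genes did not overlap. Then came Smad3 at 8.27, Smad4 at 7.88, Tgfbr2 at 5.34, Tgfbr1 at 4.38, Smad2 at 4.31, Smad7 at 3.71, Skil at 3.45 and Tgif1 at 2.25 RPKM. Below Ski, neighbours in this order overlapped in their ranges except Smad4, at 7.05 RPKM or more, and Tgfbr2, at 6.36 or less. The order of Tgfbr1, Smad2, Smad7, Skil and Tgif1 depends on the length used: per base of the longest transcript Skil had 4.98, Tgfbr1 4.97, Smad2 4.68, Tgif1 4.03 and Smad7 3.92 RPKM.

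Tgfb1 (chr7:25687002-25705077), the ligand, is the most abundant message of the set. Its controls held 592, 933 and 769 CPM at day 2, 594, 852 and 664 at day 10, 504, 806 and 698 at day 13 and 666, 827 and 711 after withdrawal, in the order of replicates 1 to 3. The miR-125b libraries held 653, 892 and 883 CPM at day 2, 575, 754 and 612 at day 10, 519, 735 and 588 at day 13 and 561, 722 and 605 after withdrawal. The arms overlapped in every condition, and replicate 2 was the highest library of all 8 groups. The log2 fold change of miR-125b over control went from 0.08 ± 0.20 (SE) at day 2 to -0.22 ± 0.20 after withdrawal, with adjusted p values in edgeR of 0.808 or more. In the miR-125b arm the mean went from 809 ± 136 CPM (SD, n = 3) at day 2 to 647 ± 94.3 at day 10, lower in 3 of 3 replicate numbers. This log2 fold change of -0.32 had an adjusted p of 0.470 in edgeR and of 0.0378 with the replicate block. It passed in 1 of the 6 fits with the block that left out 1 of these libraries, that without replicate 1 of day 2, and the other 5 gave adjusted p values up to 0.229. In the control arm the same step was -0.12, and the interaction of construct and time had an adjusted p of 0.937, so a difference between the arms in this step was not detected.

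The receptors varied little. Tgfbr1 (chr4:47353222-47414931), the type I receptor kinase that phosphorylates Smad2 and Smad3, had group means of 28.7 to 32.3 CPM in the controls and 26.3 to 27.7 CPM in the miR-125b arm, so all 4 miR-125b means lay below all 4 control means. At day 2 the miR-125b libraries, at 29.05, 30.1 and 23.9 CPM, lay below the controls, at 30.1, 31.1 and 32.6 CPM, and the groups did not overlap, although the nearest libraries were almost equal. Of all genes, 6.22% were lower without overlap at day 2. How many had all 4 miR-125b means below all 4 control means, or were lower in 10 of 12 pairs, was not counted. Tgfbr1 was lower in 10 of 12 pairs, with a mean log2 fold change of -0.20 ± 0.07 (SE), which had an adjusted p of 0.247 in edgeR and 0.0985 with the block. Of the spread of Tgfbr1 over the 24 libraries, 58.3% went with no named source, and the construct took 28.6%. Only in this member was the construct the largest named share. Tgfbr2 (chr9:116084293-116175360), the type II receptor that binds the ligand first, showed no such pattern: it was higher in 7 of 12 pairs, and its mean log2 fold change was 0.03 ± 0.07. Its levels ran from 34.5 to 52.1 CPM, with the mean of replicate 3, at 38.1 CPM, below those of replicates 1 and 2, at 46.5 and 44.1 CPM.

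Smad2 (chr18:76241580-76310963) and Smad3 (chr9:63646767-63757994), which the receptor activates, kept group means within 35.4 to 41.4 CPM and 40.5 to 47.5 CPM. Smad2 was higher in 8 of 12 pairs and Smad3 lower in 8 of 12, and their mean log2 fold changes were 0.03 ± 0.05 and -0.07 ± 0.09 (SE), with adjusted p values of 0.882 and 0.865 in edgeR. After withdrawal the miR-125b libraries, at 41.9, 40.2 and 42.03 CPM of Smad2, lay above the controls, at 39.9, 38.7 and 36.0 CPM. The nearest libraries differed by little, the adjusted p was 0.791, and 5.77% of all genes were higher without overlap there. Smad4 (chr18:73639009-73703780), the partner of both, was lower in 3 of 3 pairs at day 2 and at day 10, as were 17.1% and 23.4% of all genes, and higher in 3 of 3 at day 13, as were 15.1%. At day 10 its libraries held 27.5, 26.4 and 27.6 CPM with miR-125b and 29.8, 28.01 and 29.7 in controls, a gap without overlap that 10.5% of all genes showed in that direction. The log2 fold change was -0.10 ± 0.13, with an adjusted p of 0.748. One control library stood apart for Smad4: replicate 1 after withdrawal held 42.8 CPM, and the other libraries held 26.2 to 35.2 CPM. That library had the lowest TMM factor of the 24, at 0.932, and the fewest genes detected, at 16532. After withdrawal the log2 difference of Smad4 was -0.56 in the pair of replicate 1, and -0.0077 and 0.018 in replicates 2 and 3. The pair of replicate 1 there was also the largest in size for Skil (-0.99), Tgif1 (0.64), Ski (-0.48), Tgfbr1 (-0.45) and Smad3 (-0.40). It was so too for Tgfbr2 (-0.28) and, by little, Tgfb1 (-0.25), but not for Smad2 or Smad7.

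Smad7 (chr18:75367529-75395935), the feedback inhibitor of the receptors, gave the second clearest difference. The controls held 17.9, 24.01 and 23.1 CPM at day 2, 19.6, 26.0 and 15.7 at day 10, 12.51, 18.7 and 14.9 at day 13 and 12.46, 23.8 and 16.1 after withdrawal, in the order of replicates 1 to 3. The miR-125b libraries held 17.1, 21.5 and 16.5 CPM at day 2, 12.52, 22.1 and 13.0 at day 10, 11.5, 23.4 and 12.2 at day 13 and 9.09, 17.3 and 8.59 after withdrawal. Replicate 2 was the highest library of every group, and the arms overlapped in every condition, but within a replicate number miR-125b was lower in 11 of 12 pairs, all except replicate 2 at day 13. The log2 difference within pairs ran from -0.91 to 0.32 with a median of -0.28. The mean log2 fold change was -0.29 ± 0.16 (SE), with an adjusted p of 0.513 in edgeR. With the block it was -0.32 ± 0.08, with an adjusted p of 0.0174, and it passed in 24 of 24 fits that left out 1 library, with adjusted p values of 0.00788 to 0.0411. Each of these fits kept the other libraries of the same arm and number. With days 2 and 10 alone and the block the log2 fold change was -0.32, but the adjusted p was 0.0816, so Smad7 was not called without the groups sampled on day 13. The estimate hardly moved and this mean takes in fewer libraries, so the lost call does not show which times carried the difference. After withdrawal the log2 fold change was -0.59 ± 0.32, and with the block the adjusted p was 0.0545. DESeq2 with the block called it there, at -0.61 and an adjusted p of 0.0158.

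**Figure D2:**
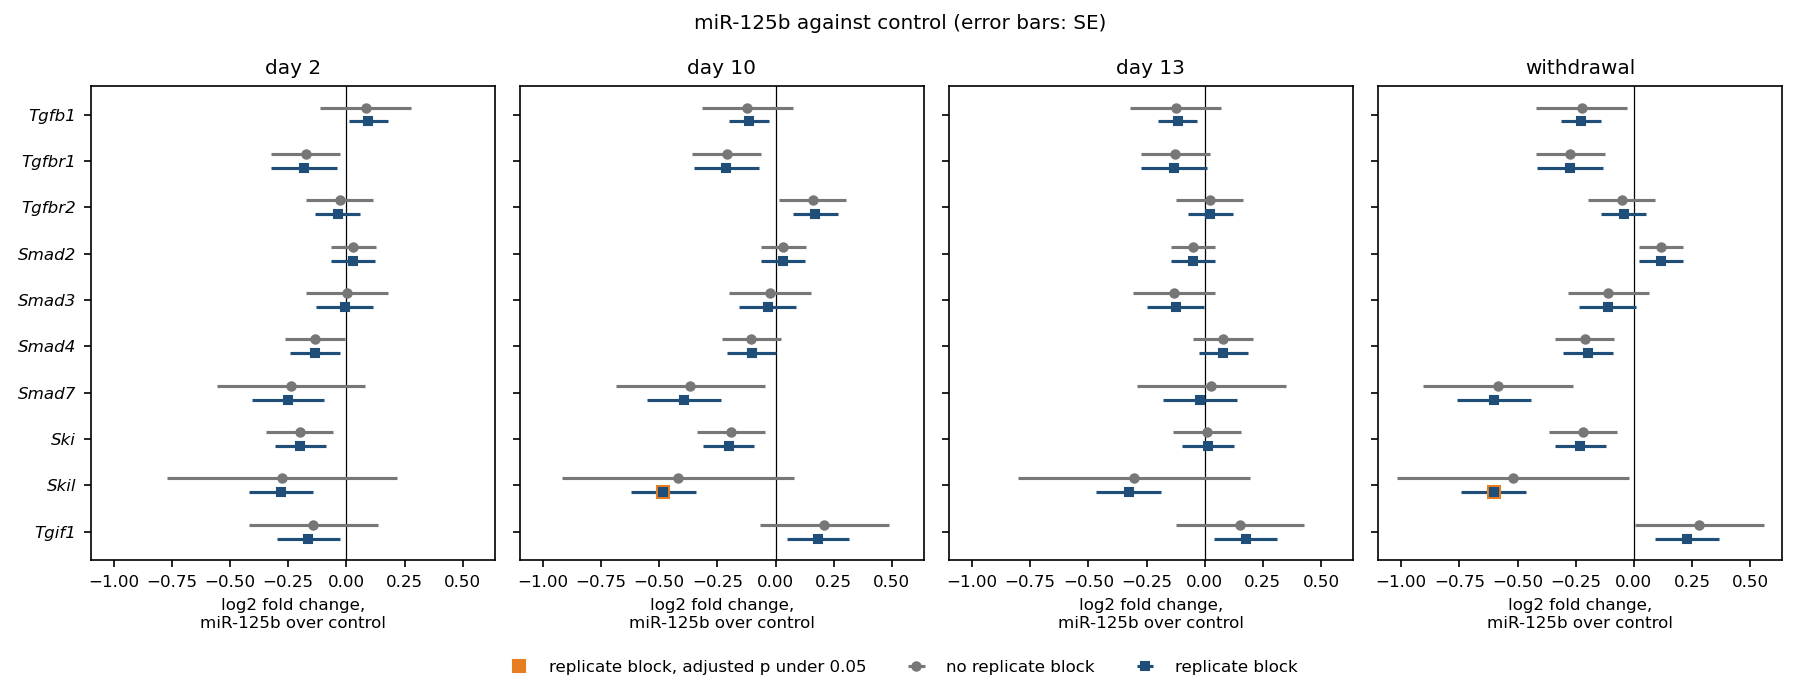
Log2 fold change of miR-125b over control (horizontal axis) for the 10 genes in the 4 conditions, with standard errors as bars, fitted without (grey circles) and with (blue squares) the replicate number as a block. Orange squares mark an adjusted p under 0.05, which only Skil reached, at day 10 and after withdrawal; the estimates hardly moved between the fits while the bars of Skil, Smad7 and Tgfb1 became shorter.

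Skil (chr3:31095058-31122577), which encodes the SMAD repressor SnoN, gave the clearest difference. The controls held 34.7, 66.9 and 53.1 CPM at day 2, 27.7, 61.2 and 32.9 at day 10, 21.9, 52.5 and 31.8 at day 13 and 30.3, 53.4 and 34.0 after withdrawal, in the order of replicates 1 to 3. The miR-125b libraries held 31.9, 57.8 and 37.8 CPM at day 2, 15.02, 50.4 and 25.5 at day 10, 16.2, 44.2 and 25.6 at day 13 and 15.3, 44.1 and 22.9 after withdrawal. In all 8 groups replicate 1 was the lowest and replicate 2 the highest library, so that the arms overlapped in every condition, while each miR-125b library lay below its control of the same number. The log2 difference within pairs ran from -0.99 to -0.12 with a median of -0.34. In the mean of the 4 conditions the log2 fold change was -0.38 ± 0.25 (SE), with an adjusted p of 0.617 in edgeR. With the block it was -0.42 ± 0.07, with an adjusted p of 6.33e-04, and Skil ranked 96 of 13419 genes by p. This call held in 24 of 24 fits that left out 1 library, with adjusted p values of 2.08e-04 to 0.00210. Each of these fits kept the other libraries of the same arm and number, so they do not show what leaving out a whole number would give. It held with days 2 and 10 alone, at -0.38 with an adjusted p of 0.0237 in edgeR with the block.

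In single conditions the difference in Skil was less secure. At day 10 the log2 fold change was -0.42 ± 0.50 (SE) with an adjusted p of 0.742 in edgeR, and with the block -0.48 ± 0.14 with an adjusted p of 0.0360. The blocked call at day 10 held in 1 of 6 fits that left out a library of that day, the one without miR-125b replicate 2, and was lost without any of the other 5, with adjusted p values up to 0.184. After withdrawal the values were -0.52 ± 0.50 with an adjusted p of 0.828, and -0.60 ± 0.14 with an adjusted p of 0.0308 with the block. That blocked call held without replicate 2 of either arm and was lost without replicate 1 or 3 of either arm, with adjusted p values up to 0.173. At day 2 and day 13 the blocked log2 fold changes of -0.28 and -0.33 did not pass in edgeR, with adjusted p values of 0.548 and 0.725, although miR-125b was lower in 3 of 3 pairs at each, as in 17.1% and 17.3% of all genes.

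**Figure D3:**
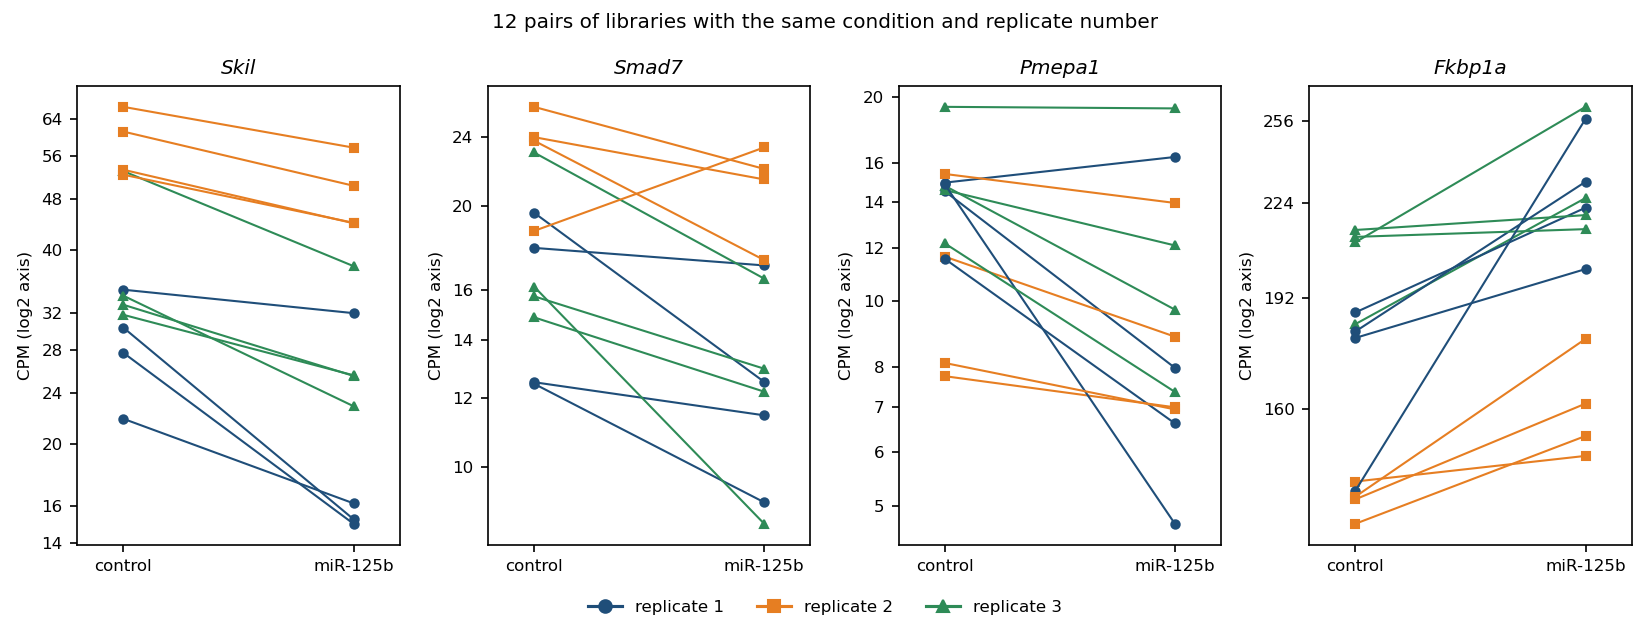
The 12 pairs of libraries of the same condition and replicate number, control on the left and miR-125b on the right of each panel, with CPM on a log2 axis and colours for the replicate number. Every line of Skil falls and 11 of 12 lines of Smad7 and Pmepa1 fall, while every line of Fkbp1a rises, and the lines of replicate 2 lie high in Skil and low in Fkbp1a.

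Ski (chr4:155154075-155222592), the close relative of Skil, varied more with the condition, which takes in time and withdrawal, than with the construct. No comparison of days passed for it. Control means were 89.2 ± 7.10 CPM (SD, n = 3) at day 2, 74.0 ± 5.83 at day 10, 60.3 ± 9.66 at day 13 and 70.2 ± 2.14 after withdrawal. The miR-125b means were 77.6 ± 5.12, 64.8 ± 15.1, 60.7 ± 5.51 and 60.3 ± 9.54 CPM. In the controls all 3 libraries of day 10, at 67.7 to 79.1 CPM, lay below all 3 of day 2, at 81.2 to 94.9 CPM, as did 6.86% of all genes. The log2 fold changes of day 10 over day 2 were -0.27 ± 0.14 (SE) in controls and -0.26 ± 0.14 with miR-125b, with adjusted p values of 0.813 and 0.425 in edgeR. Ski was lower with miR-125b in 8 of 12 pairs, with a mean log2 fold change of -0.15 ± 0.07, an adjusted p of 0.416, and 0.104 with the block. Without replicate 2 of miR-125b at day 10 the blocked adjusted p was 0.0165, the only 1 of 24 such fits in which it passed.

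Tgif1 (chr17:70844205-70853546), a homeodomain repressor that binds Smad2 and Smad3, had the opposite arrangement of replicates. Replicate 1 averaged 17.7 CPM over the 8 groups, and replicates 2 and 3 averaged 11.6 and 12.2 CPM. Replicate 1 was the highest library of all 8 groups, by little in the control of withdrawal, where it held 11.3 CPM and its miR-125b partner 17.6 CPM. The mean log2 fold change of miR-125b was 0.13 ± 0.14 (SE), with 8 of 12 pairs higher and an adjusted p of 0.820 in edgeR.

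Over the 24 libraries the replicate number took 65.6% of the sum of squares of log2 CPM in Skil, 63.4% in Tgfb1, 62.3% in Tgif1, 56.4% in Tgfbr2, 48.8% in Smad3 and 47.6% in Smad7, while the median over all tested genes was 18.3%. The condition took 48.3% in Ski and 34.1% in Smad2, with a median of 15.3% over all genes. The construct took 12.2% in Skil, 12.9% in Smad7 and 10.0% in Ski, against a median of 2.71%. Skil, Smad7, Tgfb1 and Smad3 were highest on average in replicate 2, at 53.8, 22.1, 815 and 50.4 CPM, while their means in replicate 1 were 24.1, 14.1, 583 and 40.6 CPM. What a replicate number stands for is not given in the labels.

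**Figure D4:**
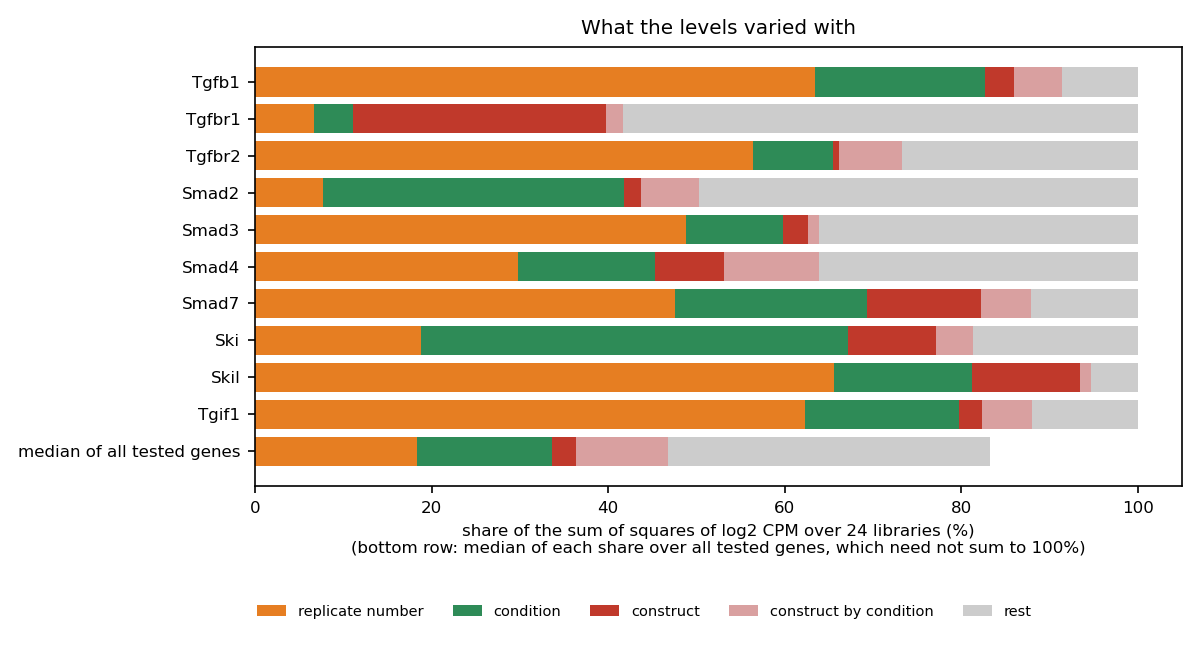
Share of the sum of squares of log2 CPM over 24 libraries (horizontal axis, %) that went with the replicate number, the condition, the construct, their interaction and the rest, for each of the 10 genes and as medians over all tested genes. The orange part, the replicate number, is longest in Skil at 65.6%, Tgfb1 at 63.4% and Tgif1 at 62.3%.

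Sums of cell type markers also followed the replicate number. The megakaryocyte sum was 4614 to 6368 CPM in the 8 libraries of replicate 2, 2485 to 3944 CPM in replicate 1 and 3006 to 5762 CPM in replicate 3. The erythroid sum, over 7 genes of which 1 was at 0, was 69.4 to 87.8 CPM in replicate 2, 118 to 156 CPM in replicate 1 and 107 to 174 CPM in replicate 3. Between the arms the megakaryocyte sum was lower with miR-125b in 6 of 12 pairs and the erythroid sum in 7 of 12. Single genes of these lists differed between the arms: with the block edgeR called 3 of 9 megakaryocyte genes lower and 1 higher in the mean, and 1 of 6 tested erythroid genes lower, against 6.39% of all genes, and 0 of either list without it. The platelet receptor subunits Gp1bb, Gp9 and Gp1ba were at -0.53, -0.42 and -0.31 on the log2 scale with the block (adjusted p of 0.00215, 0.00173 and 0.0221) and lower in 10, 11 and 12 of 12 pairs. The platelet chemokine Ppbp was at 0.99 (adjusted p of 0.00975) and higher in 12 of 12 pairs, and the globin Hba-a1 at -0.92 (adjusted p of 0.00361) and lower in 11 of 12.

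For mast cells and basophils, the 6 marker genes were all detected, Gata2 being the most abundant at 268 to 1053 CPM, and Mcpt8 and Prss34 were at 0 in some libraries. The summed level was 857 to 1384 CPM in the 8 libraries of replicate 2, 296 to 585 CPM in replicate 1 and 335 to 636 CPM in replicate 3. It was lower with miR-125b in 10 of 12 pairs, with a median log2 difference of -0.18. By group it ran from 578 to 962 CPM in controls and 515 to 857 with miR-125b at day 2, from 430 to 1384 and 364 to 1072 at day 10, from 383 to 1075 and 361 to 1024 at day 13, and from 351 to 1173 and 296 to 942 for withdrawal, and both arms overlapped throughout. In the mean, edgeR without the block called 2 of these 6 genes higher and 0 lower, against 1.28% of all genes called. The sum and the calls thus differ in direction. The called genes were the proteases Mcpt8 and Prss34, each higher in 12 of 12 pairs and at most 9.10 and 18.1 CPM, while Gata2, which makes up most of the sum, was lower in 11 of 12. Of 7 neutrophil markers 6 were tested, and edgeR called 2 higher in the mean, Mpo and Ctsg, against 1.28% of all genes. Both were higher in 12 of 12 pairs. The neutrophil markers were low but, summed, higher with miR-125b in 11 of 12 pairs, with a median log2 difference of 1.10. Their sum was 18.6 to 36.9 CPM in controls and 23.0 to 67.2 with miR-125b at day 2, 5.58 to 31.02 and 29.4 to 98.3 at day 10, 5.32 to 42.6 and 24.9 to 36.7 at day 13, and 5.87 to 40.6 and 41.4 to 59.4 after withdrawal. Of the neutrophil markers Prtn3 had the most reads and was detected in every library, while Elane, Ctsg, Csf3r, S100a8 and S100a9 were at 0 in some. The part of these cells, and of megakaryocyte and erythroid cells, in the levels of Skil and Smad7 was not tested. In bulk RNA, fewer cells of a type and less RNA per cell cannot be told apart.

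Few members changed over time. From day 2 to day 10, 10 of 10 members had a negative log2 fold change in the controls, as did 50.9% of all genes. The median was -0.11, and -0.0044 over all genes. In the miR-125b arm 8 of 10 members were lower, as were 47.3% of all genes, with a median of -0.15, and of 0.02 over all genes. The comparisons of days within an arm are not independent of those between the arms, since they share libraries. Without the block 0 members passed in either arm, against 0% of all genes in controls and 0.224% with miR-125b. With the block Skil and Tgfb1 passed in the miR-125b arm, 2 of 10 against 4.08% of all genes, and 0 members passed in controls, against 0.149%. For Skil the step was -0.49 ± 0.50 (SE) with an adjusted p of 0.722 in edgeR, and -0.59 ± 0.14 with an adjusted p of 0.0257 with the block. This call held without replicate 2 of day 2 or of day 10 and was lost without replicate 1 or 3 of either day, with adjusted p values up to 0.152. The control arm moved the same way, with -0.39 and an adjusted p of 0.264 with the block, and the interaction did not pass, with an adjusted p of 0.698.

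From day 10 to day 13, 0 members passed in either arm with or without the block. All genes gave 3.53% and 13.4% with miR-125b, without and with the block, and 0.0224% and 0.0373% in controls. Withdrawal against continued doxycycline at day 13 likewise gave 0 members in either arm, with 0% of all genes called in each arm without the block and 0.0522% with miR-125b and 0.00745% in controls with it. Smad7 had the largest such difference, at -0.43 ± 0.32 (SE) in the miR-125b arm and 0.19 ± 0.32 in controls. Its interaction of construct and withdrawal was -0.61 ± 0.45, with an adjusted p of 1.00 in edgeR. None of the 10 members passed in that interaction or in that of construct and time, in which all genes also gave 0%.

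Among 9846 genes of fair abundance, the messages whose 8 group means were most like those of Skil were Mgat1, Rbm38 and Peg10, with Pearson correlations of 0.99, 0.98 and 0.98. For Smad7 they were Mex3b, Tpp1 and Arhgef1, at 0.96, 0.96 and 0.96, and for Ski they were Eif4e3, Trim8 and Fam160b2, at 0.97, 0.97 and 0.94. Within the set the group means of Skil went with those of Ski at 0.92, Tgfb1 at 0.89 and Smad7 at 0.88. These are descriptions over 8 means that share the same libraries and scaling.

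Another 65 genes of the TGF-beta family and its outputs were listed by role, of which 48 had enough reads to test. In the mean of the 4 conditions edgeR called 0 of the 48, and with the block 2 higher and 1 lower, against 1.28% and 6.39% of all genes. The median log2 fold change of the 48 was -0.04, and 26 were lower, as were 53.4% of all genes. The 1 called lower was Pmepa1. This gene, a direct SMAD target whose product dampens the pathway, had group means of 16.5 CPM with miR-125b and 16.6 in controls at day 2, 8.86 and 13.7 at day 10, 8.56 and 11.3 at day 13 and 6.34 and 11.7 after withdrawal. Its arms did not overlap at day 10, where the miR-125b libraries held 7.99, 8.88 and 9.73 CPM and the controls 14.5, 11.6 and 14.8 CPM, nor after withdrawal, where they held 4.71, 6.94 and 7.36 CPM against 14.9, 8.12 and 12.2 CPM. Of all genes, 10.5% and 5.62% were lower without overlap at these times. Pmepa1 was lower in 11 of 12 pairs, with a mean log2 fold change of -0.48 ± 0.13 (SE), an adjusted p of 0.0836 in edgeR and of 0.00501 with the block, which held in 24 of 24 fits that left out 1 library. Each of these fits kept the other libraries of the same arm and number. Among genes with a 3′ UTR within 20% of the length of that of Pmepa1, at 3364 bases, 28.5% held a seed match. The message of Pmepa1 holds 1, printed with its match in capitals because none of the 10 members has one.
Pmepa1 (chr2:173225770-173225776, minus strand): tctccctccgggCTCAGGGtggggacac

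With days 2 and 10 alone and the block, Pmepa1 was at -0.31 with an adjusted p of 0.175 in edgeR, so it was not called without the groups sampled on day 13. That mean takes in fewer libraries, and day 2, where the arms were alike, so the lost call does not show which times carried the difference. Fkbp1a, which encodes FKBP12, a protein that holds the type I receptor inactive, was higher in 12 of 12 pairs, as were 0.663% of all genes. Its controls held 180, 138 and 184 CPM at day 2, 187, 133 and 214 at day 10, 182, 142 and 212 at day 13 and 140, 139 and 210 after withdrawal, in the order of replicates 1 to 3. The miR-125b libraries held 201, 162 and 226 CPM at day 2, 222, 153 and 220 at day 10, 232, 148 and 215 at day 13 and 257, 180 and 262 after withdrawal. Replicate 2 was the lowest library of every group, and the arms overlapped in every condition. The mean log2 fold change of Fkbp1a was 0.26 ± 0.11 (SE), with an adjusted p of 0.353 in edgeR and of 0.00181 with the block. With days 2 and 10 alone it was 0.20, with an adjusted p of 0.0869. Smad5, a transducer of the BMP branch, was called higher with the block at 0.20 with an adjusted p of 0.0321, and this held in 13 of 24 fits that left out 1 library, the other 11 reaching up to 0.0741.

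**Figure D5:**
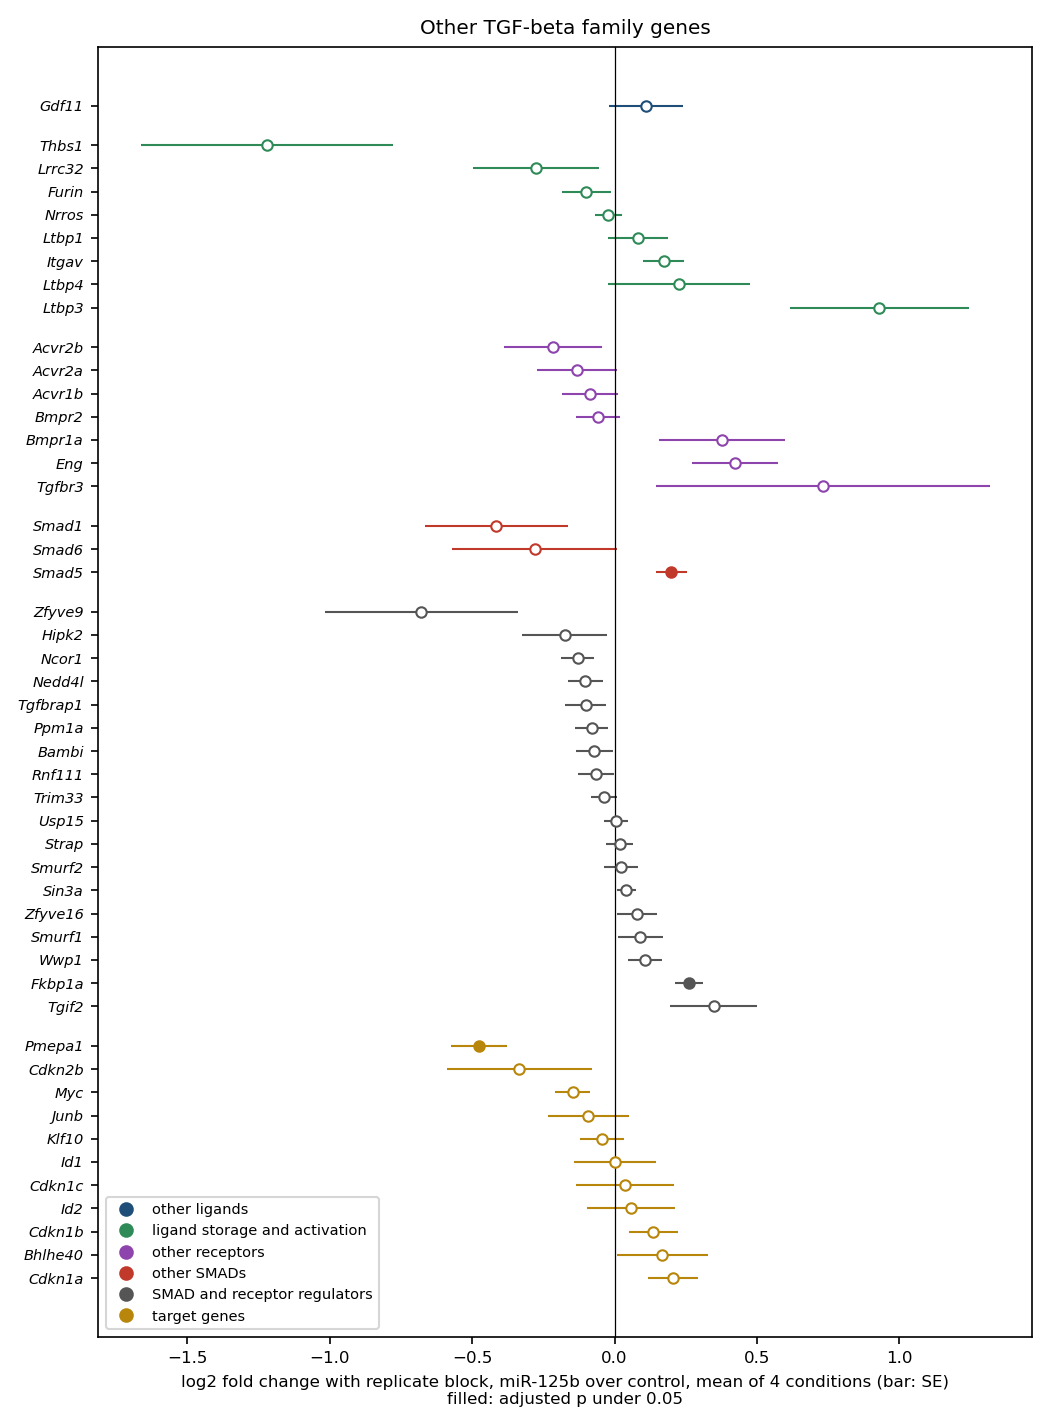
Mean log2 fold change of miR-125b over control with the replicate block (horizontal axis, bars are standard errors) for the 48 tested family genes, coloured by role. Filled points have an adjusted p under 0.05: Pmepa1 on the left of 0 and Fkbp1a and Smad5 on the right.

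By role, ligand genes were nearly silent apart from Tgfb1: of 9 others only Gdf11 was tested, at a mean log2 fold change of 0.05 and an adjusted p of 0.972 in edgeR, and Tgfb2 and Tgfb3 had at most 7 and 8 reads in any library. Of 10 genes of ligand storage and activation 8 were tested and 0 were called in the mean. The lowest p among them was that of Thbs1, an activator of latent TGF-beta1, at -1.46 ± 0.55 (SE) with an adjusted p of 0.263. Of 10 other receptors 7 were tested and 0 called, with Acvr2b lowest in p at -0.22 and an adjusted p of 0.683. Of 4 other SMADs 3 were tested, of 18 regulators 18 and of 14 targets 11.

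At day 10 the family had 1 gene called higher of 48 in edgeR, the cell cycle inhibitor Cdkn1a, with 0.872% of all genes called. Its miR-125b libraries held 231, 171 and 421 CPM and its controls 126, 136 and 154 CPM, which did not overlap, as in 9.14% of all genes in that direction, and the log2 fold change was 0.99 ± 0.23 (SE) with an adjusted p of 0.0471. Replicate 3 of miR-125b was the highest, and without it the log2 fold change was 0.54 with an adjusted p of 0.352. The call was also lost without miR-125b replicate 1 or any control of day 10, while with the block it held in 6 of 6 such fits, with adjusted p values of 1.62e-04 to 0.0481. With the block 5 of the 48 were called higher and 1 lower at day 10, against 8.63% of all genes. Among them Ltbp3, which stores latent TGF-beta, was at 2.98 with an adjusted p of 0.00638 on 0 to 63 reads, Tgif2, the relative of Tgif1, at 1.11 with an adjusted p of 0.0346 on 9 to 39 reads, and Myc, which TGF-beta represses in many cells, at -0.47 with an adjusted p of 0.0261. Myc had group means of 153 CPM with miR-125b and 214 CPM in controls. The others, named after their values were seen, were Smad5 at 0.37 with an adjusted p of 0.0429 and Cdkn1b at 0.60 with an adjusted p of 0.0367. Tgif2 passed in 1 of 6 fits that left out a library, Myc in 3 of 6 and Ltbp3 in 5 of 6.

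After withdrawal edgeR called 0 of the 48 and, with the block, Fkbp1a at 0.51 with an adjusted p of 0.0106 and Pmepa1 at -0.87 with an adjusted p of 0.0303, against 1.86% of all genes. Each was lost without some of the libraries labelled withdrawal, Fkbp1a without miR-125b replicate 1 or 3, with adjusted p values up to 0.0577, and Pmepa1 without miR-125b replicate 1 or 3 or control replicate 1, with values up to 0.173. The withdrawal pair of replicate 1 was the largest in size for both genes, at 0.87 for Fkbp1a and -1.66 for Pmepa1. Its control was the library with the lowest TMM factor. At day 2 and day 13 0 of the 48 were called in either fit. From day 2 to day 10 with miR-125b, Cdkn1b, the inhibitor p27 of the cell cycle, rose by 0.86 ± 0.18 (SE), with an adjusted p of 0.0419 in edgeR. Its mean went from 67.1 ± 15.2 CPM (SD, n = 3) to 122 ± 37.0, and without replicate 3 of day 10 the rise was 0.61. That call held in 2 of the 6 fits that left out a library, the adjusted p reaching 0.258. With the block Cdkn1a rose by 0.99 with an adjusted p of 0.0102, Pmepa1 fell by 0.88 with an adjusted p of 0.0189 and Usp15, a deubiquitinase of the receptor complex, fell by 0.36 with an adjusted p of 0.0239. In the control arm 0 of the 48 passed in this step in either fit, and in the interaction of construct and time 0 passed.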

How the data were processed

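RNA-seq of 24 libraries, 3 in each of 8 groups, was analysed. The values are raw counts per gene, used as deposited by the authors. Per the submitters' processing notes, fastp, HISAT2 2.0.5, featureCounts and the build mm10 were used; the annotation release, strand setting and filters are not given in the sources used here, so overlapping and antisense genes could not be told apart. Of 47069 identifiers, 46574 had a name in GENCODE M21 (GRCm38), and the others took at most 0.0306% of the counts of a library.

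The main test was edgeR 4.0.16 in R 4.3.3 (filterByExpr by group, TMM, robust glmQLFit and glmQLFTest), fitted once to every library with 1 mean per group, which left 16 residual degrees of freedom. Two-sided p-values were adjusted over the 13419 genes tested (Benjamini-Hochberg), and calls needed an adjusted p below 0.05. Standard errors come from the F statistic. Levels are TMM-normalised CPM, and RPKM divides these by the bases of all annotated exons. Alternatives were DESeq2 1.42.0, no filter, the newer quasi-likelihood estimate, a fit of only the groups compared, and leaving out each library.

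The groups share replicate numbers. After removal of group means, each of the 84 same-number pairs correlated above 0.1 (0.163 to 0.781, median 0.475), so the numbers were taken to pair the libraries. The median of 168 pairs of unlike number was -0.304. Removing means of 3 libraries turns such pairs negative on average when same-number pairs are positive, so this value adds no support. A fit with the number as a block, with 14 residual degrees of freedom, is given where it changes a call. Replicates of a group differed by more than sampling noise, with a chi-square of 11.1 to 103 per degree of freedom.

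In simulated counts for the day 10 comparison, over 13182 genes, the unblocked test recovered 23.9%, 85.1% and 100% of genes changed by 0.5, 1 and 2 on the log2 scale, and the blocked test 46.3%, 95.5% and 100%, with 0 and 12 false calls. The counts were drawn from the blocked model, with its replicate effects and spread, and only genes with an average log2 CPM above 2 were changed. The gain of the blocked test was thus built in and does not show that the block is right for these data.

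The members, lists and tests were chosen with earlier results of these data known. Family genes were named if called without the block in a miR-125b comparison or from day 2 to day 10, with up to 3 more called only with the block, and the gene of lowest p in the mean in each list. The mean of days 2 and 10 alone, DESeq2 with the block, and leaving out libraries under the block were added after seeing the data. Of the family genes listed, 1 is not reported here and is left out of all counts of the list.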

Additional observations from a re-analysis of the deposited data

Results flagged for a closer look

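The log2 fold change of miR-125b over control in Smad4 took opposite signs at different times. It was -0.14 at day 2 and -0.10 at day 10, each lower in 3 of 3 pairs of the same replicate number, and 0.079 at day 13, higher in 3 of 3 pairs. After withdrawal it was -0.21, lower in 2 of 3 pairs, with -0.56 in the pair of replicate 1 and -0.0077 and 0.018 in those of replicates 2 and 3. None of these 4 values passed the test in edgeR. The difference of day 13 from day 2 or day 10 was not tested. The interaction of construct and withdrawal at day 13 was -0.29 ± 0.18 (SE) and that of construct with day 10 against day 2 was 0.031 ± 0.18, and neither passed in edgeR.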

How the results depend on the processing

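With 3 libraries a group and much of the spread going with the replicate number, the test without the block has little power for small changes, and every call on a member rests on the pairing by number, whose meaning is not given in the labels. The call counts of the members (0 in each comparison) were unchanged under DESeq2, no filter, the newer quasi-likelihood estimate, the groups compared alone, and in 108 of 108 counts with a library left out of the unblocked fit. With the replicate block 1 member was called at day 10, 1 after withdrawal, 2 in the mean of the 4 conditions and 2 from day 2 to day 10 with miR-125b, and DESeq2 with the block gave 1, 2, 2 and 2. The block changed no call of a member in the other 9 comparisons. The mean of days 2 and 10 alone gave 0 members, and 1 with the block. With a library left out, in either fit, the counts ran from 0 to 2 at day 10, 0 to 1 after withdrawal, 0 to 4 in the mean and 0 to 2 from day 2 to day 10 with miR-125b; the 4 came without replicate 2 of miR-125b at day 10.

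Counts of all genes moved more. Day 10 gave 117 genes in the edgeR test, 1158 with the block, 576 with DESeq2, 65 without a filter and 0 from its groups alone, and without single libraries from 1 (control replicate 1) to 799 (miR-125b replicate 2). Withdrawal gave 16, 249, 95, 10 and 0, and the mean gave 172 in edgeR, 858 with the block and 357 with DESeq2. From day 2 to day 10 with miR-125b the counts were 30, 547, 301, 18 and 4. From day 10 to day 13 with miR-125b they were 474, 1800, 1017, 267 and 2. The newer estimate gave 31 after withdrawal and 66 from day 2 to day 10 with miR-125b. At day 2 and day 13, where edgeR called 0 genes, DESeq2 called 5 and 3 and the block 0 and 2.

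Fold changes near 0 changed sign. For Smad3 at day 2 the log2 value was 0.0014, and -0.0068 with the block, -0.00085 in DESeq2 and -0.0091 in DESeq2 with the block. For Smad7 at day 13 it was 0.029, and -0.019 with the block and -0.012 in DESeq2 with it. For Acvr2b the mean was -0.22, and 0.13 over days 2 and 10 alone, and 0.13 with the block. With a library left out, in the fits with and without the block together, the log2 values of miR-125b over control crossed 0 as follows. At day 2 Smad2 ran from -0.023 to 0.070, Smad3 from -0.12 to 0.12, Tgfb1 from -0.077 to 0.25 and Tgfbr2 from -0.20 to 0.065. At day 10 Skil ran from -1.002 to 0.0028, Smad2 from -0.078 to 0.14, Smad3 from -0.21 to 0.11, Tgfb1 from -0.25 to 0.040 and Tgif1 from -0.12 to 0.39. At day 13 Ski ran from -0.097 to 0.13, Skil from -0.76 to 0.094, Smad2 from -0.10 to 0.027, Smad3 from -0.25 to 0.056, Smad7 from -0.37 to 0.21, Tgfb1 from -0.29 to 0.031, Tgfbr2 from -0.078 to 0.090 and Tgif1 from -0.037 to 0.48. After withdrawal Smad3 ran from -0.22 to 0.038, Smad4 from -0.35 to 0.026, Tgfbr2 from -0.17 to 0.049 and Tgif1 from -0.0054 to 0.43. In the mean Gdf11 ran from -0.045 to 0.19 and Tgfbr2 from -0.019 to 0.050. The cause of these changes was not tested. Of the calls made without the block, that of Cdkn1a at day 10 was lost without a filter and from its groups alone, with adjusted p values of 0.0938 and 0.304, and that of Cdkn1b from day 2 to day 10 with values of 0.0624 and 0.297, in edgeR.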
